A study of Mus musculus with 16 samples.

Results

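The 10 genes described here encode amino acid transporters of the plasma membrane. They are Slc7a1, Slc7a3, Slc1a4, Slc1a5, Slc38a2, Slc6a9, Slc7a5, Slc7a6, Slc7a11 and Slc3a2, and they were taken from a list of names, each matched to 1 Ensembl identifier of the GRCm38 mouse annotation. All 10 were found among the 55536 genes listed in the count table. All 10 also passed the filter on low counts, which left 15316 genes for testing.

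The RNA came from a mouse inner medullary collecting duct (IMCD) cell line, an epithelium of the final stretch of the kidney tubule. The line carries a Pkd2 gene that doxycycline (DOX) inactivates, and the series asks how transcripts respond early to that loss. The product of Pkd2 is polycystin-2, a cation channel found in primary cilia and the endoplasmic reticulum, and its mutations cause a dominant form of polycystic kidney disease. Cells were kept for 10 days on permeable filters, with 2 ug/mL DOX for 6 of these days or with no DOX. The 4 groups were passage 7 with DOX, passage 7 without DOX, passage 4 with DOX and passage 4 without DOX, with 4 replicates in each. All 16 libraries are titled Pkd2KO cells, and the genotype label reads Pkd2KO for the 8 with DOX and wild type for the 8 without. The controls thus come from the same inducible line and differ by the agent, so an action of DOX itself and the loss of Pkd2 cannot be told apart. No label ties a replicate to a culture of its own, and p-values therefore measure the spread between these libraries, which may be technical.

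Libraries held 9937504 to 17188295 counts. Pkd2, the targeted gene, averaged 56.7 ± 8.07 CPM with DOX and 185.5 ± 1.40 CPM without DOX at passage 7, where CPM is a count relative to its library's effective size and each error is an SD over n = 4. At passage 4 its averages were 52.7 ± 3.98 CPM with DOX and 140.1 ± 4.24 CPM without DOX, and the counts cover the whole gene, deleted stretches included. In each group, replicates 3 and 4 stood apart from replicates 1 and 2 across all genes. By the tests described below, 15.7% of all tested genes were higher and 16.6% lower with DOX averaged over passages. At passage 7 11.6% were lower, and at passage 4 9.1% were lower. Of 10 tubule epithelium markers, all tested, 5 were lower with DOX averaged over passages (Krt8, Krt18, Pax8, Cdh1 and Cdh16) and Krt7 was higher. Their summed levels per library were 8451 to 9018 CPM with DOX and 8864 to 10122 CPM without DOX at passage 7, and 6894 to 7696 CPM with DOX and 7907 to 8366 CPM without DOX at passage 4. Of 12 principal cell markers 8 were tested, with 1 higher and 3 lower in the average, and the defining water channel gene Aqp2 had no count in any of the 16 libraries. Of 7 leukocyte markers 3 were tested, and these 3 were lower with DOX at both passages. Summed leukocyte marker levels were 36.1 to 43.7 CPM with DOX and 67.1 to 75.2 CPM without DOX at passage 7. At passage 4 these sums were 20.1 to 35.6 CPM with DOX and 39.0 to 46.9 CPM without DOX, and Adgre1 was at 0 throughout. Of proximal tubule markers 2 of 3 tested were lower in the average. Of 6 fibroblast markers 2 were tested, of which Dcn was higher and Col1a1 did not pass (log2 -0.20, SE 0.30). Of 6 endothelial markers only Flt1 was tested, and it was higher. Summed levels of the proximal tubule, fibroblast and endothelial lists were at no more than 15.8, 6.52 and 8.60 CPM in a library. The part of these markers in the transporter results was not tested.

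Cells take up amino acids through carriers that differ in what they move and what drives them. Slc7a1 and Slc7a3 encode cationic carriers of arginine, lysine and ornithine. Slc1a4, Slc1a5, Slc38a2 and Slc6a9 encode sodium-coupled carriers of small neutral amino acids. Slc7a5, Slc7a6 and Slc7a11 encode light chains that reach the cell surface only when joined by a disulfide bond to the heavy chain that Slc3a2 encodes. Several of these genes are known targets of ATF4, a transcription factor whose translation increases when amino acids run short or the endoplasmic reticulum is stressed, and which binds C/EBP-ATF response elements.

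The promoters of these genes were searched for that element. Windows from 250 bases before to 50 after the start of transcription were read from RefSeq on build GRCm38.p6, which held 11 windows for 7 of the 10 genes. The letters TGATGNAA, read on both strands, occurred in 3.97% of 32851 such windows of the genome and in 4.51% of genes. They were found in windows of 2 of the 7 genes, Slc7a11 and Slc1a4. The windows of Slc6a9, Slc7a1 and Slc3a2, which rose with DOX averaged over passages, held no match, and neither did those of Slc7a6 and Slc38a2. Slc7a3, Slc7a5 and Slc1a5, which also rose, had no window to search. Slc7a11 had a forward copy starting 66 bases before the start and a reverse copy starting 47 bases before it, and these do not overlap. Slc1a4 had a reverse copy that begins 4 bases before the start and runs across it. The stretches below run from 100 bases before the start through the first 4 bases of the transcript, 5′ to 3′ on the gene's strand, with the matching letters in capitals. Slc38a2, whose log2 fold change with DOX was near 0, is shown beside them and holds no match in this window. All 3 genes lie on the minus strand, Slc7a11 at chr3:50443610-50443713, Slc1a4 at chr11:20332710-20332813 and Slc38a2 at chr15:96699725-96699828. A match describes letters and not a binding site, and sequence outside the windows was not searched in any of these genes.
Slc7a11: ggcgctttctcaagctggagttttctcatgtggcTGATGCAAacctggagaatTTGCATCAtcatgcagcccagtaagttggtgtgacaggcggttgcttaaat
Slc1a4: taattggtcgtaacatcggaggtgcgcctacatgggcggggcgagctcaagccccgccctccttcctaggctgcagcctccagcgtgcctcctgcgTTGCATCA
Slc38a2: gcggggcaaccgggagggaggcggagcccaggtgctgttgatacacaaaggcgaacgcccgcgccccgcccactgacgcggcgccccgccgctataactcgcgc

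All 10 transporter genes were transcribed in every library. Levels were compared between genes as CPM per kilobase of exon, with the length taken over all annotated exons of a gene. This length can exceed that of the transcripts present, so orders, shares and ratios between genes are approximate. At passage 7 with DOX the order ran Slc3a2 (92.2 CPM per kilobase), Slc38a2 (57.2), Slc7a5 (50.4), Slc1a5 (37.9), Slc7a1 (36.3), Slc6a9 (22.0), Slc1a4 (19.8), Slc7a3 (9.44), Slc7a6 (6.99) and Slc7a11 (3.82). Libraries of neighbouring genes in this order overlapped for Slc1a5 with Slc7a1 and for Slc6a9 with Slc1a4. At passage 7 without DOX, Slc3a2 (63.7 CPM per kilobase) and Slc38a2 (57.9) overlapped at the top and Slc7a3 (1.83) and Slc7a11 (1.67) overlapped at the bottom. Slc1a5 stood at 13.0 CPM per kilobase there, above Slc1a4 at 11.2 and Slc6a9 at 10.1. At passage 4 with DOX the order was Slc3a2 (69.2), Slc38a2 (56.0), Slc7a5 (39.5), Slc7a1 (27.0), Slc1a5 (24.5), Slc6a9 (19.0), Slc1a4 (15.1), Slc7a6 (8.77), Slc7a3 (6.53) and Slc7a11 (3.48), and each neighbour overlapped the next except at Slc1a4 over Slc7a6 and Slc7a3 over Slc7a11. At passage 4 without DOX, Slc38a2 (56.0) and Slc3a2 (51.4) overlapped, and Slc7a3 (2.67) and Slc7a11 (2.15) again came last. Slc7a3 thus lay above Slc7a6 per kilobase at passage 7 with DOX, with no overlap, and below it without overlap in the 2 groups without DOX. The 10 genes together held 0.189 ± 0.00877% of counts with DOX and 0.137 ± 0.00287% without DOX at passage 7. At passage 4 this share was 0.156 ± 0.0222% with DOX and 0.128 ± 0.00956% without DOX.

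**Figure D1:**
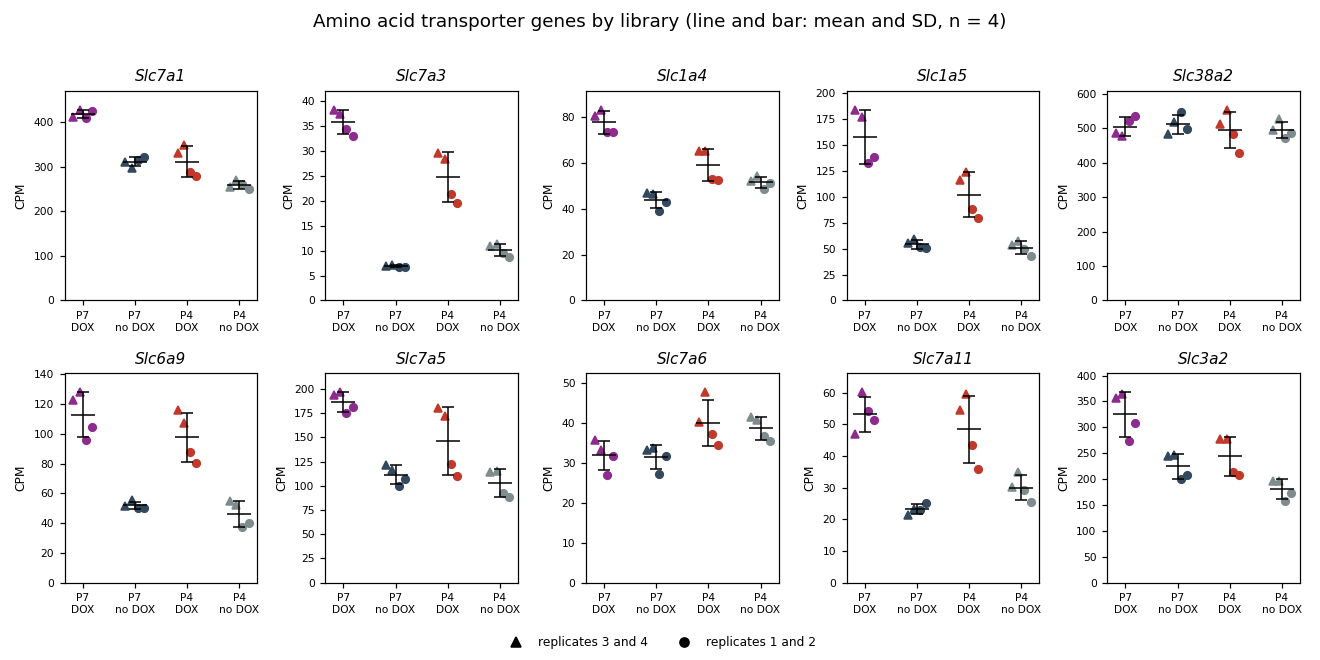
CPM of each transporter gene in each of the 16 libraries, by passage (P7, P4) and DOX state, with triangles for replicates 3 and 4, circles for replicates 1 and 2, and lines and bars for mean and SD (n = 4). Slc7a3, Slc1a5 and Slc6a9 lie higher in every library with DOX than in any library without DOX at both passages, and Slc38a2 and Slc7a6 overlap between DOX states.

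With DOX, 8 of the 10 genes rose at passage 7 and 7 of 10 rose at passage 4, and none fell at either passage. The tests were edgeR's quasi-likelihood tests with Benjamini-Hochberg adjustment over all 15316 genes and a threshold of 0.05, and log2 fold changes are given with their standard errors (SE). Of all tested genes, 11.1% were called higher with DOX at passage 7 and 8.45% at passage 4, and 11.6% and 9.1% were called lower. The 7 genes called at passage 4 were also called at passage 7, and 5.05% of tested genes were called higher at both. The median log2 fold change of the 10 genes was 0.79 at passage 7 and 0.47 at passage 4, and over all tested genes it lay within 0.01 of 0. Averaged over the passages 8 of 10 were higher and none lower, against 15.7% of tested genes higher and 16.6% lower, and the median was 0.57. Slc7a3, Slc1a5 and Slc6a9 were at least 2-fold higher in that average, a mark that 1.16% of tested genes passed with a call. Libraries with and without DOX did not overlap for 8 of the 10 genes at passage 7 and for 6 of 10 at passage 4, all with DOX higher. The same held for 12.4% and 10.3% of tested genes at passage 7 and passage 4. With 4 libraries against 4, the exact two-sided permutation test cannot give a p below 0.0286, which each gene without overlap reached.

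**Figure D2:**
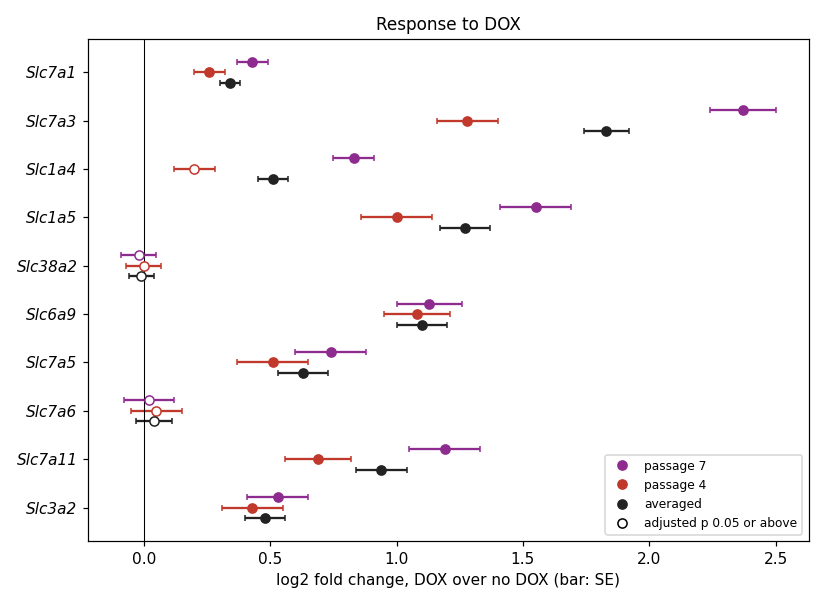
Log2 fold change of each transporter gene, DOX over no DOX, at passage 7, at passage 4 and averaged over both, with bars for the SE and open points where the adjusted p was 0.05 or above. Slc7a3 reaches 2.37 at passage 7, Slc38a2 and Slc7a6 lie at 0 within their SE, and Slc1a4 is called at passage 7 and not at passage 4.

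Of the cationic carriers, Slc7a3 had the largest DOX response of the 10 genes at both passages, from a low level. Slc7a3 had 34.4, 33.0, 38.2 and 37.3 CPM with DOX and 6.80, 6.80, 6.90 and 7.12 CPM without DOX at passage 7 (replicates 1 to 4). At passage 4 Slc7a3 had 21.3, 19.6, 29.6 and 28.3 CPM with DOX and 9.54, 8.65, 10.9 and 11.3 CPM without DOX. Every library with DOX exceeded every library without DOX, and the gap was wider at passage 7. The fold change of Slc7a3 was 5.17 at passage 7 (log2 2.37, SE 0.13, adjusted p = 3.5e-10) and 2.44 at passage 4 (log2 1.28, SE 0.12, adjusted p = 6.6e-07). In the average over passages, 0.268% of tested genes had a larger log2 fold change than Slc7a3.

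Slc7a1 encodes the broadly expressed arginine and lysine carrier CAT1, and its change was small but clear of the spread at passage 7. Slc7a1 had 408.5, 425.8, 411.6 and 427.5 CPM with DOX and 315.7, 322.0, 310.9 and 297.6 CPM without DOX at passage 7. In passage 4 cells Slc7a1 had 287.7, 278.2, 331.0 and 349.1 CPM with DOX and 262.1, 251.0, 255.1 and 270.2 CPM without DOX. The DOX libraries were all higher, although replicates 1 and 2 at passage 4 lay close to the controls. The log2 fold change of Slc7a1 was 0.43 (SE 0.06, adjusted p = 5.2e-05) at passage 7 and 0.26 (SE 0.06, adjusted p = 0.0051) at passage 4. From replicates 1 and 2 alone the passage 4 value was 0.14 (SE 0.05, adjusted p = 0.066), and from replicates 3 and 4 it was 0.37 (SE 0.05). Of the summed per-kilobase level of both cationic carriers, Slc7a3 held 20.6 ± 1.25% with DOX and 6.34 ± 0.331% without DOX at passage 7. At passage 4 the Slc7a3 share was 19.3 ± 1.64% with DOX and 10.6 ± 0.982% without DOX. Slc7a2, the remaining cationic carrier of this kind, had at most 1 count in a library.

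Of the neutral carriers, Slc1a5, Slc6a9 and Slc1a4 rose with DOX and Slc38a2 did not pass the test. Slc1a5 encodes ASCT2, a glutamine carrier. Slc1a5 had 132.9, 139.0, 183.9 and 177.3 CPM with DOX and 51.3, 50.5, 55.3 and 59.6 CPM without DOX at passage 7. At passage 4 Slc1a5 had 88.3, 80.0, 116.8 and 124.1 CPM with DOX and 50.1, 43.4, 53.3 and 57.5 CPM without DOX. The groups did not overlap, and among libraries with DOX replicates 3 and 4 were the higher ones. The fold change was 2.93 at passage 7 (log2 1.55, SE 0.14, adjusted p = 1.1e-06) and 2.00 at passage 4 (log2 1.00, SE 0.14, adjusted p = 1.2e-04).

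Slc1a4 encodes ASCT1, a carrier of alanine, serine and cysteine. Slc1a4 had 73.5, 73.8, 80.6 and 83.4 CPM with DOX and 39.0, 43.2, 47.0 and 46.4 CPM without DOX at passage 7. At passage 4 it had 53.3, 52.7, 65.3 and 65.5 CPM with DOX and 48.8, 51.2, 52.1 and 54.3 CPM without DOX. The groups lay far apart at passage 7 and overlapped at passage 4, where replicates 1 and 2 with DOX fell within the range of the controls. The log2 fold change of Slc1a4 was 0.83 (SE 0.08, adjusted p = 6.7e-07) at passage 7 and 0.20 (SE 0.08, adjusted p = 0.11) at passage 4. With replicate number as a block the passage 4 value was 0.19 with an adjusted p of 0.011, so the call at passage 4 depends on how the replicates are modelled. Without replicate 2 of passage 4 with DOX it was 0.25, with an adjusted p of 0.047.

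Slc6a9 encodes GLYT1, a glycine carrier driven by sodium and chloride. Slc6a9 had 96.0, 104.6, 122.7 and 128.3 CPM with DOX and 50.3, 50.1, 51.5 and 55.6 CPM without DOX at passage 7. At passage 4 it had 87.5, 80.6, 116.0 and 107.2 CPM with DOX and 37.5, 39.9, 55.0 and 52.0 CPM without DOX. All libraries with DOX were higher. The fold change was 2.18 at passage 7 (log2 1.13, SE 0.13, adjusted p = 1.4e-05) and 2.12 at passage 4 (log2 1.08, SE 0.13, adjusted p = 2.9e-05), with a difference of 0.04 (SE 0.19, adjusted p = 0.97) between the log2 values. On the opposite strand, the gene Ccdc24 shares 1429 exon bases with Slc6a9, 27.8% of the exon bases of Slc6a9, and Ccdc24 rose as well (log2 1.16 averaged over passages, SE 0.12, adjusted p = 5.3e-07). The sources used here do not give the strand setting of the counting, so reads of Slc6a9 and Ccdc24 over the shared bases cannot be told apart. Ccdc24 averaged 29.2 CPM with DOX and 13.7 CPM without DOX at passage 7, and 25.9 CPM with DOX and 11.1 CPM without DOX at passage 4, below Slc6a9 in each group. Also on that strand, Gm17114 shares 511 exon bases with Slc6a9 and rose by 0.92 on the log2 scale, while B4galt2 shares 46 exon bases and fell by 0.59. Genes that overlap other members share no exon bases with them and had at most 1 count in a library.

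Slc38a2 encodes SNAT2, a sodium-coupled carrier of alanine and glutamine that cells are known to induce when amino acids are withdrawn. Slc38a2 had 521.6, 535.6, 485.4 and 479.4 CPM with DOX and 548.5, 498.1, 482.7 and 517.4 CPM without DOX at passage 7. In passage 4 cells Slc38a2 had 484.3, 427.8, 513.7 and 554.6 CPM with DOX and 472.3, 486.1, 495.2 and 527.4 CPM without DOX. The groups overlapped fully at both passages. The values at passage 7 gave a log2 fold change of -0.02 (SE 0.07, adjusted p = 0.89) and those at passage 4 one of 0.00 (SE 0.07, adjusted p = 1). Slc38a2 had more counts than any other of the 10 genes in each library, 5158 to 7779.

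Of the heavy chain and its partners, Slc3a2, Slc7a5 and Slc7a11 rose with DOX and Slc7a6 did not pass the test. Slc3a2, the heavy chain, had 272.9, 307.5, 357.7 and 363.9 CPM with DOX and 200.8, 207.5, 244.7 and 246.7 CPM without DOX at passage 7. At passage 4 Slc3a2 had 214.6, 208.2, 276.7 and 277.1 CPM with DOX and 158.4, 172.5, 197.3 and 197.2 CPM without DOX. The groups did not overlap, but at each passage the controls of replicates 3 and 4 came close to the DOX libraries of replicates 1 and 2. The log2 fold change of Slc3a2 was 0.53 (SE 0.12, adjusted p = 0.0033) at passage 7 and 0.43 (SE 0.12, adjusted p = 0.018) at passage 4.

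Slc7a5 encodes LAT1, the carrier of leucine and other large neutral amino acids. Slc7a5 had 175.0, 181.1, 194.2 and 196.8 CPM with DOX and 100.3, 107.5, 122.0 and 116.5 CPM without DOX at passage 7. In passage 4 cells Slc7a5 had 122.9, 110.5, 180.3 and 172.6 CPM with DOX and 92.3, 88.3, 114.2 and 115.8 CPM without DOX. The groups were apart at passage 7 and overlapped at passage 4, where replicate 2 with DOX lay below the controls of replicates 3 and 4. The log2 fold change of Slc7a5 was 0.74 (SE 0.14, adjusted p = 9.9e-04) at passage 7 and 0.51 (SE 0.14, adjusted p = 0.017) at passage 4. The exact two-sided permutation p of Slc7a5 at passage 4 was 0.0857. The passage 4 calls of Slc7a5 and Slc3a2 were lost, at adjusted p-values of 0.052 to 0.061, on leaving out replicate 3 or 4 with DOX or replicate 1 or 2 without DOX at passage 4. With no filter on low counts their adjusted p-values were 0.058 and 0.063, and from the compared groups alone that of Slc7a5 was 0.074. Within replicates 3 and 4 alone the passage 4 values were 0.62 for Slc7a5 and 0.49 for Slc3a2, and within replicates 1 and 2 they were 0.37 for Slc7a5 and 0.36 for Slc3a2, all past the threshold.

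Slc7a11 encodes xCT, which imports cystine in exchange for glutamate and so feeds glutathione synthesis. Slc7a11 had 54.2, 51.4, 46.9 and 60.3 CPM with DOX and 23.1, 25.3, 21.4 and 23.2 CPM without DOX at passage 7. At passage 4 it had 43.5, 35.9, 54.5 and 59.7 CPM with DOX and 29.2, 25.4, 30.3 and 34.9 CPM without DOX. The groups did not overlap, though replicate 2 with DOX and replicate 4 without DOX nearly met at passage 4. The fold change was 2.29 at passage 7 (log2 1.19, SE 0.14, adjusted p = 5.7e-06) and 1.61 at passage 4 (log2 0.69, SE 0.13, adjusted p = 0.0013). Slc7a11 is the gene with both element copies printed above.

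Slc7a6 encodes y+LAT2, which exports cationic amino acids in exchange for neutral ones and sodium. Slc7a6 had 27.1, 31.7, 35.7 and 33.3 CPM with DOX and 27.3, 31.8, 33.2 and 33.9 CPM without DOX at passage 7. At passage 4 it had 37.4, 34.6, 40.4 and 47.9 CPM with DOX and 36.8, 35.6, 41.5 and 40.9 CPM without DOX. The groups overlapped at both passages. At passage 7 the log2 fold change of Slc7a6 was 0.02 (SE 0.10, adjusted p = 0.90), and at passage 4 it was 0.05 (SE 0.10, adjusted p = 0.81).

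The makeup of the light chain transcripts is given as a description with no test. Of the summed per-kilobase level of Slc7a5, Slc7a6 and Slc7a11, Slc7a6 held 11.4 ± 0.797% with DOX and 17.8 ± 0.613% without DOX at passage 7. At passage 4 the Slc7a6 share was 17.2 ± 2.04% with DOX and 22.2 ± 1.10% without DOX. Slc7a5 held most of the sum, 82.3 ± 0.359% with DOX and 77.8 ± 0.873% without DOX at passage 7, and 76.1 ± 2.17% with DOX and 72.2 ± 1.16% without DOX at passage 4. Slc7a11 held 6.26 ± 0.691% with DOX and 4.35 ± 0.551% without DOX at passage 7, and 6.71 ± 0.343% with DOX and 5.62 ± 0.374% without DOX at passage 4. The ratio of Slc3a2 to the summed light chains was 1.50 ± 0.112 with DOX and 1.65 ± 0.0699 without DOX at passage 7. At passage 4 that ratio was 1.35 ± 0.0950 with DOX and 1.35 ± 0.0794 without DOX. Heavy and light chain transcripts thus kept a ratio above 1 in all 4 groups, with ranges of 1.28 to 1.59 in libraries with DOX and 1.28 to 1.73 in libraries without DOX. Another partner of the heavy chain, Slc7a7, averaged about 4 CPM in each group and is not counted in these sums. Per kilobase Slc7a7 averaged 1.21 CPM with DOX and 1.09 CPM without DOX at passage 7, where Slc7a11 averaged 3.82 and 1.67. At passage 4 Slc7a7 averaged 1.12 CPM per kilobase with DOX and 1.35 without DOX, where Slc7a11 averaged 3.48 and 2.15.

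The DOX response itself differed between passages for 2 of the 10 genes, Slc7a3 and Slc1a4, both larger at passage 7. Over all tested genes, 0.516% had a difference of log2 responses, passage 7 minus passage 4, called positive and 0.679% one called negative. The difference of log2 fold changes, passage 7 minus passage 4, was 1.09 (SE 0.18, adjusted p = 0.0046) for Slc7a3 and 0.63 (SE 0.12, adjusted p = 0.0082) for Slc1a4. For Slc1a5 it was 0.55 (SE 0.20, adjusted p = 0.26), and with replicate number as a block the same value had an adjusted p of 7.6e-04. For Slc7a11 it was 0.51 (SE 0.19, adjusted p = 0.28). The other 6 genes had differences of -0.02 to 0.23, none past the threshold. Within replicates 1 and 2 the difference was 1.13 for Slc7a3 and 0.76 for Slc1a4, and within replicates 3 and 4 it was 1.05 for Slc7a3 and 0.51 for Slc1a4, each past the threshold.

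Between passages some carriers were higher and some lower. Without DOX, Slc7a1 was higher at passage 7, at 311.5 ± 10.3 CPM, than at passage 4, at 259.6 ± 8.45 CPM (log2 0.26, SE 0.06, adjusted p = 0.0042). Slc7a3 was lower without DOX, at 6.91 ± 0.152 CPM at passage 7 and 10.1 ± 1.21 CPM at passage 4 (log2 -0.55, SE 0.14, adjusted p = 0.0070). Slc7a6 was lower too, at 31.5 ± 2.97 CPM at passage 7 and 38.7 ± 2.96 CPM at passage 4 (log2 -0.30, SE 0.10, adjusted p = 0.042), and so was Slc1a4, at 43.9 ± 3.69 CPM at passage 7 and 51.6 ± 2.26 CPM at passage 4 (log2 -0.24, SE 0.08, adjusted p = 0.043). These are 1 gene higher, against 14.3% of tested genes, and 3 lower, against 11.3%. The call of Slc7a6 without DOX was lost in 7 of the 16 fits that left out 1 library, which was replicate 1, 2 or 3 of passage 7 without DOX, replicate 4 of passage 7 with DOX, or replicate 1, 3 or 4 of passage 4 without DOX. The call of Slc1a4 was lost in 6 of these fits, without replicate 1 or 2 of passage 7 without DOX, replicate 3 of passage 7 with DOX, or replicate 2, 3 or 4 of passage 4 without DOX. Adjusted p-values in these fits were 0.050 to 0.14 for Slc7a6 and 0.051 to 0.14 for Slc1a4. With replicate number as a block, Slc3a2 (log2 0.31, adjusted p = 1.2e-05) and Slc6a9 (0.18, adjusted p = 0.043) were also higher and Slc7a11 (-0.35, adjusted p = 0.025) lower, against adjusted p-values of 0.064 for Slc3a2, 0.41 for Slc6a9 and 0.063 for Slc7a11 without the block.

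With DOX, 5 genes were higher at passage 7 than at passage 4, against 18.3% of tested genes, and 1 was lower, against 15.8%. Slc1a5 averaged 158.3 ± 26.0 CPM at passage 7 and 102.3 ± 21.4 CPM at passage 4 with DOX (log2 0.63, SE 0.14, adjusted p = 0.0023). Slc7a3 averaged 35.7 ± 2.46 CPM at passage 7 and 24.7 ± 4.96 CPM at passage 4 with DOX (log2 0.54, SE 0.11, adjusted p = 0.0013). Slc7a1 (log2 0.43, SE 0.06), Slc3a2 (0.42, SE 0.12) and Slc1a4 (0.40, SE 0.08) were higher as well, with adjusted p-values of 3.7e-05, 0.012 and 8.8e-04. Slc7a6 was the gene called lower (log2 -0.32, SE 0.10, adjusted p = 0.022), and this call was lost without replicate 4 of passage 4 with DOX (adjusted p = 0.095) or replicate 1 of passage 7 with DOX (adjusted p = 0.075). With the block, Slc7a5 (log2 0.37, adjusted p = 5.2e-04) and Slc6a9 (0.21, adjusted p = 0.0088) were called higher too, against 0.35 and 0.21 without it. Slc7a3 and Slc1a4 were thus lower at passage 7 without DOX and higher at passage 7 with DOX, which is the difference of responses given above from another side, since the comparisons share their libraries.

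**Figure D3:**
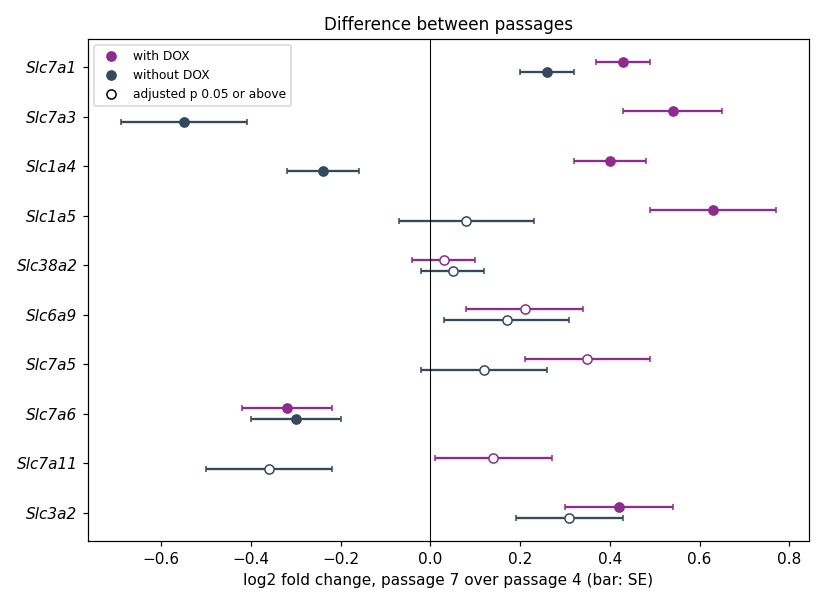
Log2 fold change of each transporter gene, passage 7 over passage 4, with DOX and without DOX, with bars for the SE and open points where the adjusted p was 0.05 or above. Slc7a3 and Slc1a4 lie on opposite sides of 0 with and without DOX, and Slc7a6 lies at -0.32 with DOX and -0.30 without DOX.

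The transporter genes also moved with the replicate pairs. With group held constant, 7 of 10 had higher levels in replicates 3 and 4 than in the other two and none had lower levels, against 17.5% of tested genes higher and 19.5% lower. The log2 differences were 0.35 for Slc1a5, 0.33 for Slc6a9, 0.32 for Slc7a5, 0.31 for Slc3a2, 0.27 for Slc7a3, 0.23 for Slc7a6 and 0.18 for Slc1a4. Those of Slc7a11 (0.19, SE 0.09), Slc7a1 (0.06, SE 0.04) and Slc38a2 (0.03, SE 0.04) did not pass. Slc1a5, Slc6a9, Slc7a5, Slc3a2, Slc7a3 and Slc1a4, higher in replicates 3 and 4, were also called higher with DOX averaged over passages. Slc38a2 passed neither test. By contrast, Slc7a6, with 0.23 between the pairs, had 0.04 (SE 0.07) for DOX averaged over passages. Slc7a1, with 0.06 between the pairs, had 0.34 (SE 0.04) for DOX. Within each pair the DOX response of the 8 genes that rose was above 0 at both passages. At passage 7 the response of Slc1a5 was 1.66 (SE 0.06) in replicates 3 and 4 and 1.42 (SE 0.07) in replicates 1 and 2, and that of Slc6a9 was 1.23 (SE 0.07) in replicates 3 and 4 and 1.00 (SE 0.07) in replicates 1 and 2. For passage 7 against passage 4 with DOX, Slc38a2 was called in opposite directions by the pairs, at -0.15 (SE 0.05, adjusted p = 0.026) in replicates 3 and 4 and 0.22 (SE 0.06, adjusted p = 0.010) in replicates 1 and 2. Slc7a11 read -0.09 (SE 0.10, adjusted p = 0.48) in replicates 3 and 4 and 0.42 (SE 0.10, adjusted p = 0.0018) in replicates 1 and 2 for that comparison. The labels do not say what separates the pairs.

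**Figure D4:**
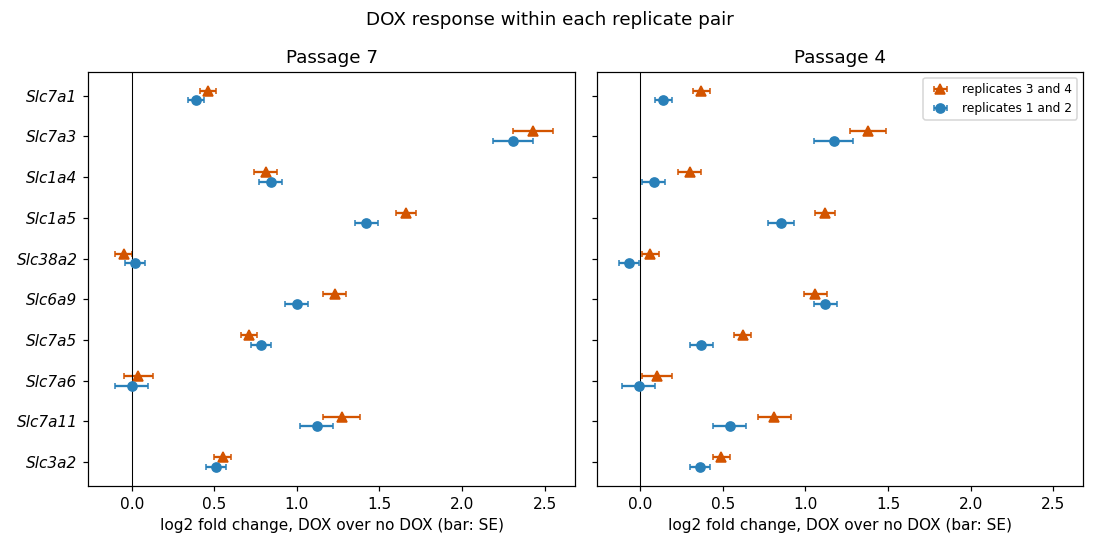
Log2 fold change of each transporter gene, DOX over no DOX, fitted from replicates 3 and 4 (triangles) and from replicates 1 and 2 (circles), at passage 7 and at passage 4, with bars for the SE. At passage 4 Slc1a4 reads 0.30 from replicates 3 and 4 and 0.08 from replicates 1 and 2, and at passage 7 it reads 0.81 from replicates 3 and 4 and 0.84 from replicates 1 and 2.

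Most other amino acid transporters did not pass the test for DOX. Of 45 other carriers of the plasma membrane and lysosome, 21 were tested, and averaged over passages 2 rose with DOX, 2 fell and 17 did not pass, with a median log2 fold change of -0.01. The count of 2 that fell was 4 without replicate 2 of passage 4 with DOX and from replicates 3 and 4 alone. For this and the following lists, 15.7% of tested genes were higher and 16.6% lower in the same average. The carriers that rose were Slc38a7, a lysosomal glutamine and asparagine carrier (0.33, SE 0.04), and Slc38a1, a close relative of Slc38a2 (0.21, SE 0.05). Slc6a6, the taurine carrier, fell (log2 -0.45, SE 0.05, adjusted p = 8.1e-07), with mean levels of 125.9 CPM with DOX and 170.2 CPM without DOX at passage 7. Slc6a18, a neutral amino acid carrier of low level here, fell in the average (log2 -1.08, SE 0.27, adjusted p = 0.0048). It fell at passage 7 (-2.65, SE 0.45, adjusted p = 2.7e-04) and did not pass at passage 4 (0.49, SE 0.28, adjusted p = 0.27). Of 12 tested mitochondrial carriers of amino acids and related substrates, 2 rose, 2 fell and 8 did not pass, shares near those of all tested genes, with a median of -0.02. Slc25a39, which carries glutathione, rose by 0.45 (SE 0.04, adjusted p = 8.9e-08), Slc25a40, its close relative, rose by 0.43 (SE 0.08), Slc25a44, a carrier of branched-chain amino acids, fell by 0.28 (SE 0.04), and Slc25a13, an aspartate and glutamate carrier, fell by 0.21 (SE 0.06).

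Most enzymes that make or use the carried amino acids passed the test for DOX. All 18 were tested, and 11 rose, 4 fell and 3 did not pass, with a median of 0.63 averaged over passages. Cth, which makes cysteine from cystathionine, rose by 1.31 (SE 0.08). Gpt2, the mitochondrial alanine aminotransferase, rose by 0.99 (SE 0.07), Aldh18a1, which starts proline synthesis, by 0.65 (SE 0.04), and Got1, the cytosolic aspartate aminotransferase, by 0.64 (SE 0.04), each with an adjusted p of 2.2e-09. The 4 that fell were Gclm (-0.92) and Gclc (-0.37), the subunits of the enzyme that starts glutathione synthesis from cysteine and glutamate, Cbs (-0.81), which makes cystathionine, and Arg2 (-0.64), the mitochondrial arginase. Slc7a11 and Cth, which supply cysteine, thus rose in the average while Gclm and Gclc fell. Gclc fell at passage 7 (log2 -0.61, SE 0.13, adjusted p = 0.0024) and did not pass at passage 4 (-0.12, SE 0.13, adjusted p = 0.60). The 4 that fell were named after their values were seen. The list of enzymes was chosen with results of these libraries known, and its direction is no independent evidence.

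Of 23 genes that sense amino acid supply or respond to its lack, 11 were higher, 1 was lower and 11 did not pass, with a median of 0.04. Those higher were the response genes Atf4, Ddit3, Trib3, Chac1, Cebpb and Cebpg, and Sesn2, Rragc, Rragd, Flcn and Fnip1. The sensor genes Eif2ak4 (-0.10, SE 0.07), Castor1 and Sesn1 did not pass. The count lower was 2 without replicate 2 of passage 7 with DOX or replicate 2 of passage 7 without DOX, 3 with the block or the pair term and 4 from replicates 3 and 4 alone. Ddit3 and Trib3, which the ATF4 pathway is known to induce, rose by 1.59 (SE 0.07) and 1.81 (SE 0.14), and Atf4 itself rose by 0.57 (SE 0.08, adjusted p = 1.6e-05). Castor2, a relative of the cytosolic arginine sensor Castor1, fell by 0.54 (SE 0.07). Of 8 genes for transporter partners and degradation factors, none rose and 3 fell, with a median of -0.25. That count of 3 was 1 with no filter on low counts and 5 within each replicate pair alone. It was also 1 without replicate 3 or 4 of passage 7 with DOX, replicate 1 or 2 of passage 7 without DOX, replicate 3 of passage 4 with DOX, or replicate 1, 2 or 4 of passage 4 without DOX. The 3 genes were Nedd4l, a ubiquitin ligase of membrane proteins (-0.42, SE 0.04, adjusted p = 2.3e-07), Cd44 (-0.26, SE 0.09, adjusted p = 0.045) and Itgb1 (-0.10, SE 0.04), whose adjusted p of 0.05 lies just under the threshold before rounding. The lists as a whole were not tested against other genes.

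**Figure D5:**
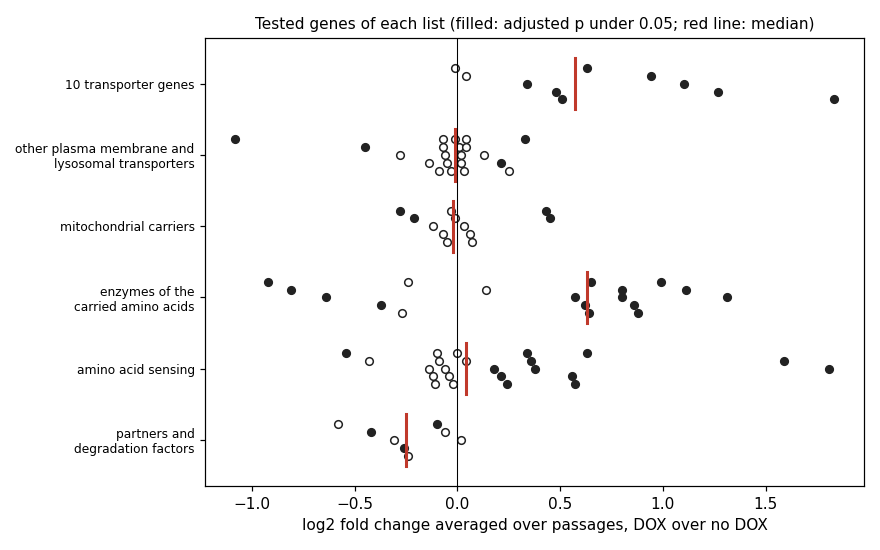
Log2 fold change averaged over passages, DOX over no DOX, of each tested gene in the set of 10 transporters and in 5 related lists, with filled points for genes past the threshold and a red line for each median. Medians are 0.57 for the 10 transporters, 0.63 for the enzymes, -0.25 for the partners and degradation factors, and near 0 for the other transporters, the mitochondrial carriers and the amino acid sensing list.

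Over the 16 libraries, the genes with the most similar profile of log2 CPM were picked for each member. They were sought among 10662 genes of at least 5 CPM on average, leaving out clone and predicted gene names such as Gm and Rik symbols. The libraries fall into 4 groups and 2 replicate sets, so such correlations reflect these shared steps, and they are given as a description. Slc1a5 was closest to Cyb5r1 (Pearson r = 0.994) and Trib3 (0.991), Slc7a3 to Nars (0.990) and Eif3c (0.984), and Slc7a5 to Pck2 (0.989) and Eif4ebp1 (0.979). Slc3a2 was closest to Atf4 (0.979) and Lcn2 (0.971), Slc1a4 to Leprotl1 (0.976) and Yars (0.965), and Slc7a1 to Stbd1 (0.973) and Acox2 (0.963). Slc6a9 was closest to Ccdc24 (0.992), its overlapping neighbour on the other strand, and then to Slc23a2 (0.977). Slc7a11 was closest to Ptbp1 (0.967) and to its fellow member Slc7a3 (0.963). Slc7a6 had lower values, with Prrg2 and Mthfsd at 0.912 each, and Slc38a2 the lowest, with Spindoc at 0.757 and Nup93 at 0.749. Nars and Yars encode the aminoacyl-tRNA synthetases for asparagine and tyrosine, and Pck2 encodes the mitochondrial form of a gluconeogenic enzyme. Among the members themselves, the highest correlations were 0.96, for Slc1a5 with Slc6a9 and for Slc7a3 with Slc7a11, and the lowest was -0.35, for Slc7a1 with Slc7a6. For deviations from the group means, the correlation of Slc7a1 with Slc7a6 was 0.55, and the lowest of any member pair was 0.27.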

How the data were processed

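Per the labels' protocols, poly(A) RNA was isolated from total RNA, libraries came from a directional kit, and paired reads of 75 bp were aligned by STAR 2.6.0c on GRCm38.p6. Deposited by the authors were raw counts per gene and TPM, each table with 1 column per library. Which tool counted the reads, its strand setting, its annotation release and how TPM values were made are not given in these sources. Symbols, positions and exon lengths came from the GRCm38 annotation, matched by identifier.

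Counts were filtered by filterByExpr, scaled by TMM and fitted in edgeR 4.0.16 (R 4.3.3), with 1 mean per group over all 16 libraries, 12 residual degrees of freedom and robust quasi-likelihood tests, Benjamini-Hochberg adjusted over 15316 genes. Alternatives were DESeq2 1.42.0, RLE scaling, no filter, the compared groups alone, a replicate block or pair term, each pair alone, each library left out, and limma 3.58.1 on log2(TPM + 1). The 16 TPM columns match the count columns by position (lowest correlation 0.9996 over 10945 genes), yet 12 carry the header of another group. Pkd2 fits the count headers, so no TPM level is reported. That choice of headers rests on Pkd2, which is therefore no separate check of them.

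Pairing was checked by correlating each library's deviations from its group mean. Correlations between groups were 0.161 to 0.35 for the same number, 0.175 to 0.362 for the other number of the same pair, and -0.326 to -0.17 for the other pair. Libraries thus deviated together within a pair, and the same number was no closer than the other number of its pair. The labels give no basis for pairing, and the block and the pair term were run as alternatives. Replicates were distinct libraries: a chi-square test of their counts gave 1.91 to 4.95 per degree of freedom within pairs and 11.0 to 20.5 between them. The steps were also run on simulated counts of independent libraries with no replicate pairs, and that run does not bear on the pairing seen here.

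The members and lists were chosen with earlier results of these data known. Named were all 10 members, Pkd2, up to 4 genes of each list by adjusted p, the 2 genes most like each member, and overlapping genes. Other names were chosen after their values were seen.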

Additional observations from a re-analysis of the deposited data

Results flagged for a closer look

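The DOX response of Slc7a3 differed between passages by a test of the difference itself, with a log2 response that was 1.09 larger at passage 7 than at passage 4. The same test picked out Slc1a4, whose response was 0.63 larger at passage 7. Both values kept their call in each of the 16 fits that left out 1 library. In 40 groups of 4 libraries, 1 for each gene and group, no library of these 10 genes stood apart from the other 3 by Dixon's test.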

How the results depend on the processing

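With replicate number as a block or the replicate pair as a term, 3 genes rather than 1 were higher at passage 7 without DOX. For the 10 genes, no count called with DOX moved by over 1.5 times under DESeq2, RLE scaling, no filter, the block or the pair term. Over all tested genes, those called with DOX at passage 4 were 2031 higher and 2145 lower with the block and 2135 and 2219 with the pair term, against 1294 and 1393. Against 79 and 104 tested genes with a difference of responses called positive or negative, the block gave 287 and 428. The pair term gave 339 and 482, and DESeq2 gave 140 and 200. Without 1 library these counts were 45 to 95 and 61 to 135, lowest without replicate 1 of passage 4 with DOX. Leaving out 1 library gave 5 to 8 genes higher with DOX at passage 4, 8 at passage 7, and 2 with a larger response at passage 7. It gave 1 to 2 higher and 1 to 4 lower for passage without DOX, and 5 to 6 higher and 0 to 1 lower with DOX. Replicates 1 and 2 alone gave 5 larger responses, and 4 higher without and 9 higher with DOX at passage 7. Replicates 3 and 4 alone gave 2 higher without DOX and 2 lower with DOX. The compared groups alone gave 2 higher without DOX and 0 lower with DOX. TPM as headed gave 0 higher with DOX at passage 7, 0 at passage 4, 2 in the average and 0 larger responses, and for passage 5 higher and 0 lower without DOX and 0 lower with DOX. Under those headers Pkd2 reads 0.18 at passage 7, 0.06 in the average, 0.24 for the difference, -1.71 for passage without DOX and -1.47 with DOX. Some signs turned. For Slc38a2 with DOX at passage 4 they read 0.00 under DESeq2, RLE scaling and the compared groups alone and 0.06 from replicates 3 and 4. At passage 7 Slc38a2 read 0.02 from replicates 1 and 2, its average 0.01 from replicates 3 and 4, and its difference 0.00 with no filter and 0.09 from replicates 1 and 2. For passage, Slc38a2 read -0.03 without and -0.15 with DOX from replicates 3 and 4, Slc6a9 0.00 without DOX and Slc7a11 -0.09 with DOX. From replicates 1 and 2, Slc7a6 read -0.01 at passage 4, 0.00 in the average and 0.01 for the difference, and Slc6a9 -0.12 for the difference. Over fits without 1 library, Slc38a2 ranged from -0.06 to 0.06 at passage 4, -0.05 to 0.02 at passage 7 and -0.04 to 0.02 in the average. Slc7a6 ranged from -0.05 to 0.11 at passage 4, -0.04 to 0.09 at passage 7 and -0.01 to 0.07 in the average. For the difference, Slc38a2 ranged from -0.08 to 0.04, Slc7a6 from -0.09 to 0.08 and Slc6a9 from -0.05 to 0.14, and Slc38a2 ranged from -0.03 to 0.09 for passage with DOX and 0.00 to 0.05 between the pairs. The cause of these changes was not tested.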

Other observations

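Among the 21 other amino acid transporters tested, 2 had a difference of DOX responses, passage 7 minus passage 4, called negative. Of all tested genes 0.679% had such a difference. The 2 genes encode neutral carriers of the SLC6 family, and their log2 fold changes were positive at passage 4 and negative at passage 7. Slc6a19 (B0AT1) averaged 6.84 CPM with DOX and 9.51 CPM without DOX at passage 7, and 7.96 CPM with DOX and 5.64 CPM without DOX at passage 4. Its log2 fold change was -0.48 (adjusted p = 0.034) at passage 7 and 0.50 (adjusted p = 0.038) at passage 4, with a difference of -0.98 (edgeR adjusted p = 0.038). Slc6a18 averaged 0.200 CPM with DOX and 1.37 CPM without DOX at passage 7, and 2.54 CPM with DOX and 1.84 CPM without DOX at passage 4. The log2 fold change of Slc6a18 was -2.65 (adjusted p = 2.7e-04) at passage 7 and 0.49 (adjusted p = 0.27) at passage 4. The difference of these responses was -3.14 (adjusted p = 0.0054). Of the enzymes, Cth (0.84), Gpt2 (0.72), Psph (0.66) and Aldh18a1 (0.57) had log2 responses called larger at passage 7, as Slc7a3 and Slc1a4 did. For Arg2 the difference was called negative (-0.84). Arg2 fell further at passage 7 (log2 -1.07, SE 0.10, adjusted p = 6.5e-07) than at passage 4 (-0.22, SE 0.10, adjusted p = 0.14). These genes were picked after their values were seen.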
